A study of Homo sapiens with 22 samples.

Results

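The protein-coding exons described here are the stretches of DNA on chromosomes 1 to 22 that are translated into protein. They are the merged coding sequence (CDS) intervals of protein-coding genes in GENCODE version 44 on hg38. Intervals within 2 kb of the 5′ end of any protein-coding gene were left out. This rule kept 181419 of 204039 merged intervals. Of these, 43414 hold at least 1 TTAA tetranucleotide, and 30050 received at least 1 transposon insertion. They hold 66233 TTAA sites, of which 60945 lie in the body of exactly 1 protein-coding gene. The comparisons below use 58890 of these sites in 9641 genes, all of which have at least 20 intronic TTAA sites for comparison.

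The insertions came from calling card libraries of K562 cells, an established human leukemia line that carries the BCR-ABL1 fusion. All cells received 5 µg of the donor Barcoded-PBase-SRT-Puro by electroporation. One set of 10 libraries was made with 5 µg of the helper hyPBase (labelled WTHYPB), and the other set of 10 with 5 µg of hyPBase-centrip (labelled WTHYPBcentrip). What sets hyPBase-centrip apart is not given in the sources used here. Cells of both sets were kept in puromycin at 2 µg/ml for 11 days, and RNA was taken from 3 transfections together. The labels do not say which libraries came from separate cultures, so p-values measure the spread between these libraries, which may be technical. A further 2 libraries whose labels name different helpers entered no comparison.

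The piggyBac transposase (PBase) inserts its transposon at TTAA and restores that sequence when it leaves. The donor here is a self-reporting transposon, so each insertion is read from an RNA that starts inside the transposon and runs into the flanking genome. Reverse transcription from oligo(dT) means that this RNA must carry a run of A, which most RNAs gain at a polyadenylation signal downstream. Coding exons are short, conserved and richer in G and C than introns, and a TTAA inside them is read as part of a leucine codon or across a codon boundary. The last exon of a gene usually holds the stop codon, the 3′ untranslated region (3′ UTR) and the gene's polyadenylation signal.

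Each library listed between 1509672 and 3596762 insertions, where an insertion is a distinct combination of position, orientation and barcode. All of those on chromosomes 1 to 22 lay on a TTAA of hg38. Each library used 26 barcodes, which gives 52 possible insertions per site, and 20 of the barcodes carried 98.97% to 99.05% of the insertions. The library hyPBase-centrip replicate 3 stood apart in an earlier analysis of these data, and results were also computed without it. K562 lacks the CDKN2A locus, and 1 insertion was listed at the 220 TTAA sites of CDKN2A, with 0 at the 69 sites of CDKN2B and 0 at the 921 sites of MTAP.

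A few coding TTAA sites took a large number of insertions, and these are shown because they are the most used coding sites. The 5 sites with most insertions, at most 1 per gene, are written 5′ to 3′ on the strand of the gene, with the TTAA in capitals and 28 bases on each side. The capitals mark only the central site.
HOMER2: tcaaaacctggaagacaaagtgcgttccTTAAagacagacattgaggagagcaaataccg
OR52A5: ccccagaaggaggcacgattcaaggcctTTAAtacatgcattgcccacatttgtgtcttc
CAPN2: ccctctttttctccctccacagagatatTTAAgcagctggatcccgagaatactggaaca
CABCOCO1: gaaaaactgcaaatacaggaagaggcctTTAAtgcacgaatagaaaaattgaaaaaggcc
SAMSN1: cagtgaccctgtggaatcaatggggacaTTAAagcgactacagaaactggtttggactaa

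The HOMER2 site, at chr15:82849855-82849858 on the minus strand, lies in a coding exon of 186 bp of a postsynaptic scaffold protein and is the single TTAA of that exon. It took between 37 and 40 insertions per hyPBase library, with a median of 38, and between 37 and 42 per hyPBase-centrip library, with a median of 38. Its 772 insertions in the 20 libraries stand against 3.299 insertions per TTAA in the introns of HOMER2. The libraries are close to one another here, and both helpers overlap. The counts come near the number of insertions that the 20 common barcodes in 2 orientations can show at a site, which compresses differences at this level. The highest intronic site held 818 insertions.

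The OR52A5 site, at chr11:5131918-5131921 on the minus strand, lies in the 948 bp coding exon of an olfactory receptor. It took 734 insertions, between 33 and 40 per hyPBase library and between 30 and 40 per hyPBase-centrip library. The same exon holds 2 other TTAA sites, which took 32 and 3 insertions and are printed in that order to show how far sites within an exon can differ.
OR52A5 site with 32 insertions: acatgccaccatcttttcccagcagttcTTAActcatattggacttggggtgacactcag
OR52A5 site with 3 insertions: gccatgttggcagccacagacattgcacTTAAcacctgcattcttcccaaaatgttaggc
They lie at chr11:5132213-5132216 and chr11:5132416-5132419. All of these OR52A5 sites have a neighbourhood of 36 bases that occurs at no other TTAA.

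CAPN2, the catalytic subunit of a calcium-dependent protease, took 691 insertions at chr1:223772187-223772190, which lies 6 bases inside a coding exon of 59 bp. CABCOCO1, a coiled-coil protein of cilia, took 600 at chr10:61765979-61765982. SAMSN1, a signalling adaptor of blood cells, took 513 at chr21:14583731-14583734, in an exon of 127 bp whose other TTAA brought the exon to 990. All of these sites were hit in 20 of 20 libraries. At the HOMER2, OR52A5 and CAPN2 sites the share of insertions listed on the strand of the gene was 48.96%, 49.7% and 49.3%. At sites this close to the limit in both orientations the share is held near an even split, so no preference can be read from it. It was 43.8% at CABCOCO1 and 30.0% at SAMSN1.

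The flanking bases of the TTAA moved with its use in coding exons and in introns alike. Here a site and its reverse complement are counted as the same context. The context ctTTAAag had the highest level, 13.8 insertions per site over 451 coding sites and 10.9 over 35310 intronic sites in the 20 libraries. The context agTTAAct had 0.144 per site over 153 coding sites and 0.208 over 16630 intronic sites, the lowest intronic level of the contexts examined. Among 135 contexts with at least 50 coding sites and at least 1 coding insertion, 99 had a higher level in coding exons than in introns. These are levels over sites, with no test.

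**Figure D1:**
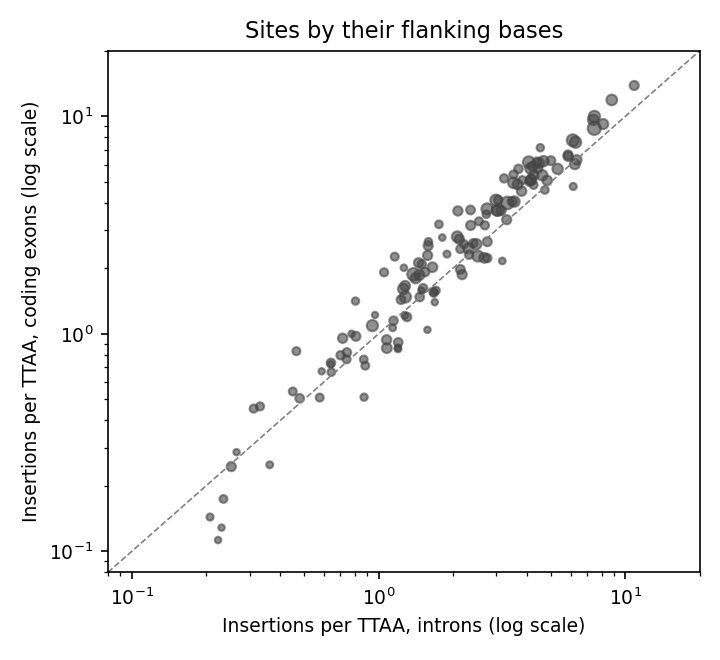
Insertions per TTAA site in coding exons (vertical, log scale) against introns of the same genes (horizontal, log scale), summed over 20 libraries. Each point is 1 of 135 combinations of the flanking bases on each side of the TTAA, with its area rising with the number of coding sites, and the dashed line marks equal levels. Of these points, 99 lie above the line.

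Coding exons held fewer TTAA sites per base than the genome but more insertions per site than the introns of the same genes. They had 2.25 TTAA sites per kb, against 6.27 per kb over chromosomes 1 to 22. They made up 0.367% of TTAA sites and took 0.518% of insertions. Of the coding sites compared, 61.4% were hit at least once, against 57.0% of intronic sites after matching by gene. The mean was 3.85 insertions per coding site and 2.97 per intronic site, while the median was 1 in both. The 1% of coding sites with most insertions held 25.2% of all coding insertions, and the same share of intronic sites held 28.8%.

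To compare exons with introns at equal gene, the insertions in coding exons were divided by the number expected if each coding TTAA had the intronic rate of its own gene. This density ratio was between 1.12 and 1.17 in the hyPBase libraries, with a median of 1.13 and a mean of 1.14 ± 0.0180 (SD, n = 10). In the hyPBase-centrip libraries it was between 1.12 and 1.24, with a median of 1.16 and a mean of 1.17 ± 0.0303 (SD, n = 10). The ratio was above 1 in 10 of 10 libraries of each helper (exact two-sided sign-flip permutation test, p = 0.00195 in each, the smallest p that 10 libraries allow). Matching by gene and by the GC content of the surrounding 200 bp together brought it to 1.05 and 1.07, and taking only introns within 2 kb of a coding exon raised it to 1.32 and 1.35. Coding sites had a median GC content of 38.5% and intronic sites one of 34.5%.

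Single genes varied widely around this pooled ratio. Among 6669 genes with at least 5 insertions expected from their own introns, a filter that favours genes with dense introns and so low ratios, the median gene ratio was 0.866, with quartiles of 0.436 and 1.5003. The ratio was above 1 in 2844 genes (42.6%). It was above 4 in 268 genes and below 0.25 in 990. The 100 coding sites with most insertions held 11.3% of the coding insertions.

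**Figure D2:**
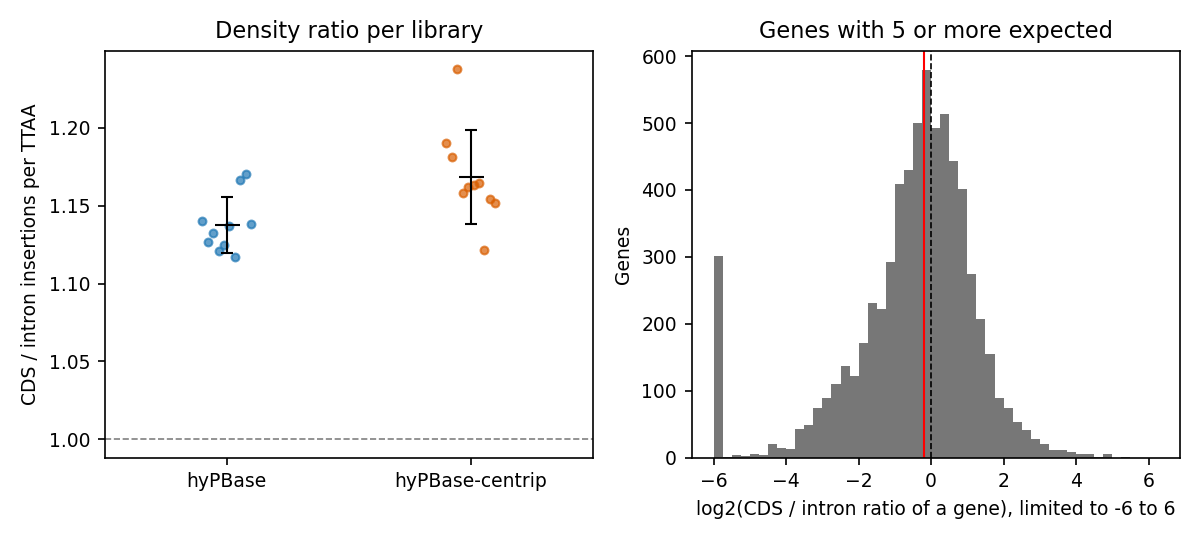
Left, the ratio of insertions per TTAA in coding exons to that expected from introns of the same genes, 1 point per library, with the mean and SD of 10 libraries per helper and a dashed line at 1 (the axis does not start at 0). Right, the number of genes by log2 of their own ratio over the 20 libraries, with a red line at the median of 0.866, a dashed line at equality, and genes with no coding insertion in the leftmost bar.

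The order of the exon within its gene went with both the density and the orientation of insertions. Orientation is compared with the strand of the gene, and an insertion whose listed strand equals that of the gene is called same-strand. Which end of the transposon the listed strand refers to is not given in the sources used here, and under the other convention each share would turn to its complement. In internal coding exons of the Ensembl canonical transcript, 22.2% ± 1.45 (SD, n = 20) of insertions were same-strand. In first coding exons the share was 20.1% ± 1.76. In last coding exons it was 52.7% ± 1.05, close to an even split. Genes with a single coding exon had 46.8% ± 2.82, and 3′ UTR sites of the same genes had 50.5% ± 0.921. Introns of these genes had 31.6% ± 0.748.

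The libraries did not overlap between internal and last coding exons. In hyPBase libraries the share in internal exons was between 19.5% and 23.8%, with a median of 21.3%, and in last exons between 50.8% and 53.6%, with a median of 52.2%. In hyPBase-centrip libraries it was between 21.3% and 25.2% in internal exons and between 51.2% and 54.7% in last exons. These values rest on 161057 insertions in internal and 32428 in last coding exons. Last exons exceeded internal ones by 31.0 percentage points ± 1.69 (SD, n = 10) with hyPBase and by 30.0 ± 1.75 with hyPBase-centrip, in 10 of 10 libraries each (exact two-sided sign-flip permutation test, p = 0.00195, Benjamini-Hochberg adjusted p = 0.00220 over 18 tests of exon classes).

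**Figure D3:**
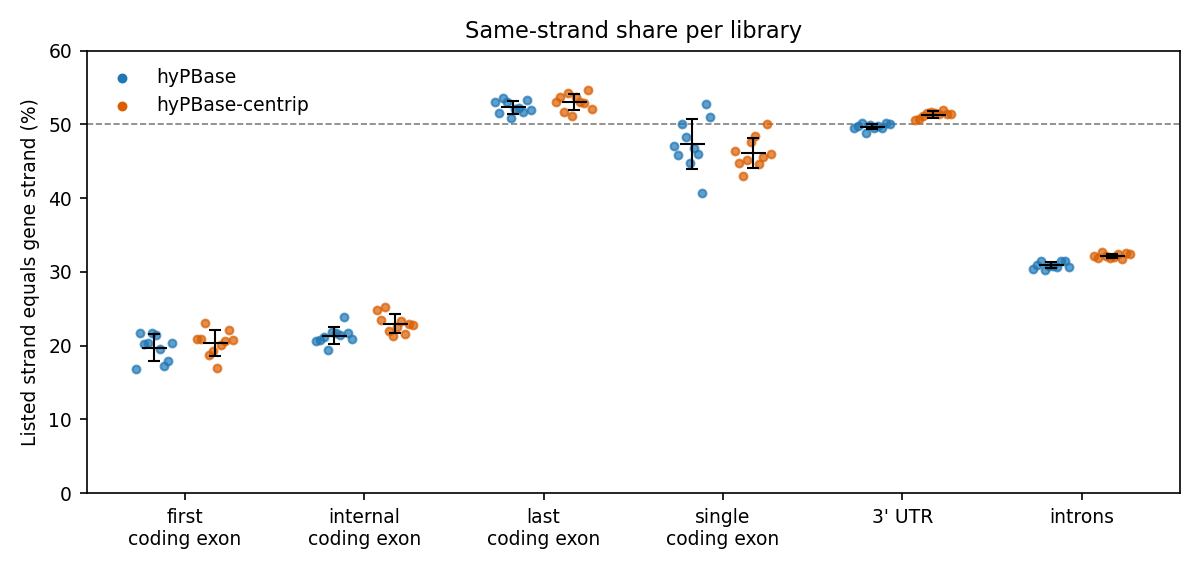
Percent of insertions whose listed strand equals that of the gene, 1 point per library, in coding exons by their place in the canonical transcript, in 3′ UTRs and in introns of the same genes, with mean and SD of 10 libraries per helper and a dashed line at 50%. First and internal coding exons lie between 16.8% and 25.2%, and last coding exons between 50.8% and 54.7%.

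The difference was also found within genes and within exons of like length. In the 2197 genes with TTAA sites in both kinds of exon, the share was 22.7% ± 1.65 in internal and 53.1% ± 1.08 in last coding exons (SD, n = 20). Among intervals of 200 to 1000 bp it was 21.6% ± 1.47 and 52.9% ± 2.12. Of last coding exons, those that were also the terminal exon of the transcript had a share of 53.0% ± 1.13 over 6675 sites. Last coding exons followed by a further, untranslated exon had 30.4% ± 11.4 over 161 sites and 405 insertions, so each library added few of them. The terminal ones were higher by 15.4 percentage points ± 7.29 with hyPBase and by 29.7 ± 11.5 with hyPBase-centrip, in 10 of 10 libraries each (exact two-sided sign-flip permutation test, adjusted p = 0.00195 over 24 tests).

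Counted from the 3′ end, the mean same-strand share was lower with each step into the gene. It was 52.4% ± 1.18 (SD, n = 20) in terminal exons and 37.0% ± 1.82 in the exon before. It was 24.7% ± 1.69 in exon 3 from the end, 23.7% ± 2.23 in exon 4 and 21.7% ± 1.78 in exon 5. Exons 6 to 10 from the end had 20.1% ± 1.60, and those further in had 18.8% ± 1.58. Neighbouring values from exon 3 to exon 5 differed by no more than about their spread and were not tested. The terminal exon exceeded the exon before it by 15.1 points ± 2.61 with hyPBase and 15.5 ± 2.65 with hyPBase-centrip, and that exon exceeded the next by 12.7 ± 2.33 and 11.9 ± 2.37 (exact sign-flip permutation test, n = 10, 10 of 10 libraries each, adjusted p = 0.00195).

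**Figure D4:**
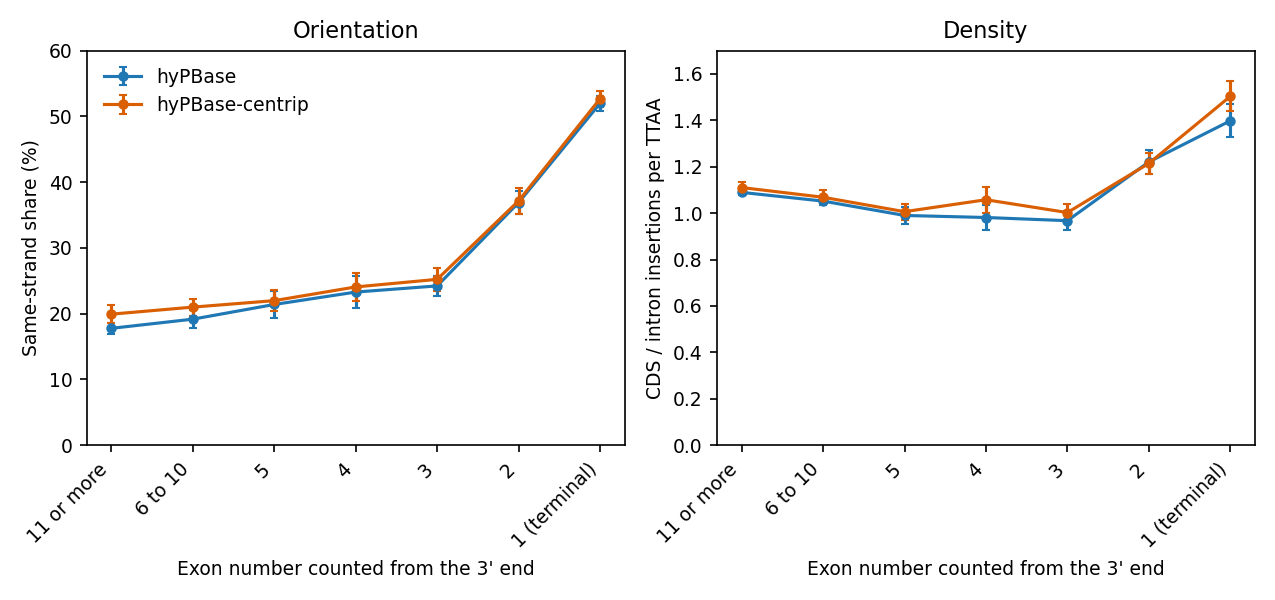
Same-strand share (left, percent) and density ratio against introns of the same genes (right) for coding TTAA sites by the number of their exon counted from the 3′ end of the canonical transcript, as mean and SD of 10 libraries per helper. Both are highest in the terminal exon, with means over the 20 libraries of 52.4% and 1.45.

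The density followed the same order in part. Relative to introns of the same genes, it was 1.45 ± 0.0856 in terminal exons and 1.22 ± 0.0466 in the exon before (SD, n = 20). It was 0.985 ± 0.0426 in exon 3 from the end and 1.10 ± 0.0218 in exons 11 or further in. The ratio of last to internal coding exons was 1.33-fold with hyPBase and 1.40-fold with hyPBase-centrip, in 10 of 10 libraries each (exact sign-flip permutation test, n = 10, p = 0.00195). The size depended on the setting, from 1.10 and 1.16 with distinct positions per library to 1.91 and 1.94 in genes that overlap no other gene. Over all genes, 54.9% of TTAA sites in last coding exons were hit against 62.1% in internal ones. In genes with TTAA sites in both kinds of exon the share hit was 62.7% in each. Among intervals of 200 to 1000 bp it was 66.6% in last and 62.5% in internal coding exons. At 3′ UTR sites the ratio was 1.39 ± 0.0186.

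Introns close to coding exons also had their highest share near the 3′ end of the gene, over a narrower range. Within 2 kb of a coding exon, the same-strand share was 28.7% ± 0.936 in the last intron and 21.3% ± 0.683 in the intron before it. It was 16.7% ± 0.736 in introns 11 or further from the end (SD, n = 20). With distance from the nearest coding exon the intronic share went from 18.7% ± 0.904 within 99 bp to 40.2% ± 0.713 beyond 10000 bp. These intronic shares were pooled over genes and not matched by gene. Different genes may contribute at each distance and place, so a change within genes cannot be read from them.

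The same-strand share rose on the approach to the 3′ splice site, where an intron ends and an exon begins. In introns other than the last, the share was 10.4% ± 0.538 from -1000 to -500 bp relative to the start of the exon and 12.1% ± 1.21 at 25 to 50 bp before it. In the last 25 bp it was 22.3% ± 2.05, and in the first 25 bp of the exon 27.0% ± 2.42. At 100 to 200 bp inside the exon it was 18.8% ± 1.21. Before a terminal exon the share was 23.9% ± 1.38 from -1000 to -500 bp, 34.1% ± 2.16 at 100 to 200 bp and 49.9% ± 3.19 in the last 25 bp. It reached 57.3% ± 2.54 in the first 25 bp of the terminal exon (SD, n = 20 throughout). No test was run on this profile, and its density is relative to all introns rather than matched by gene.

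The other side of the exon, at the 5′ splice site of the next intron, ran the other way. The share was 24.0% ± 1.67 at 50 to 100 bp inside the exon and 15.2% ± 0.777 in its last 25 bp. In the intron that follows it was 18.1% ± 0.846 in the first 25 bp and 22.96% ± 0.918 in the bin farthest from the exon (-1000 to -500 bp, counted away from it). From 25 bp outwards the intronic share on this side was above that at equal distance before a non-terminal exon. In the 25 bp next to the exon it was below it. This side includes last introns, which the values before non-terminal exons leave out, and neither side was matched by gene. The density changed at both edges. At non-terminal 3′ splice sites it was 0.746 ± 0.0204 at 25 to 50 bp before the exon and 1.20 ± 0.0374 at the same distance inside it.

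**Figure D5:**
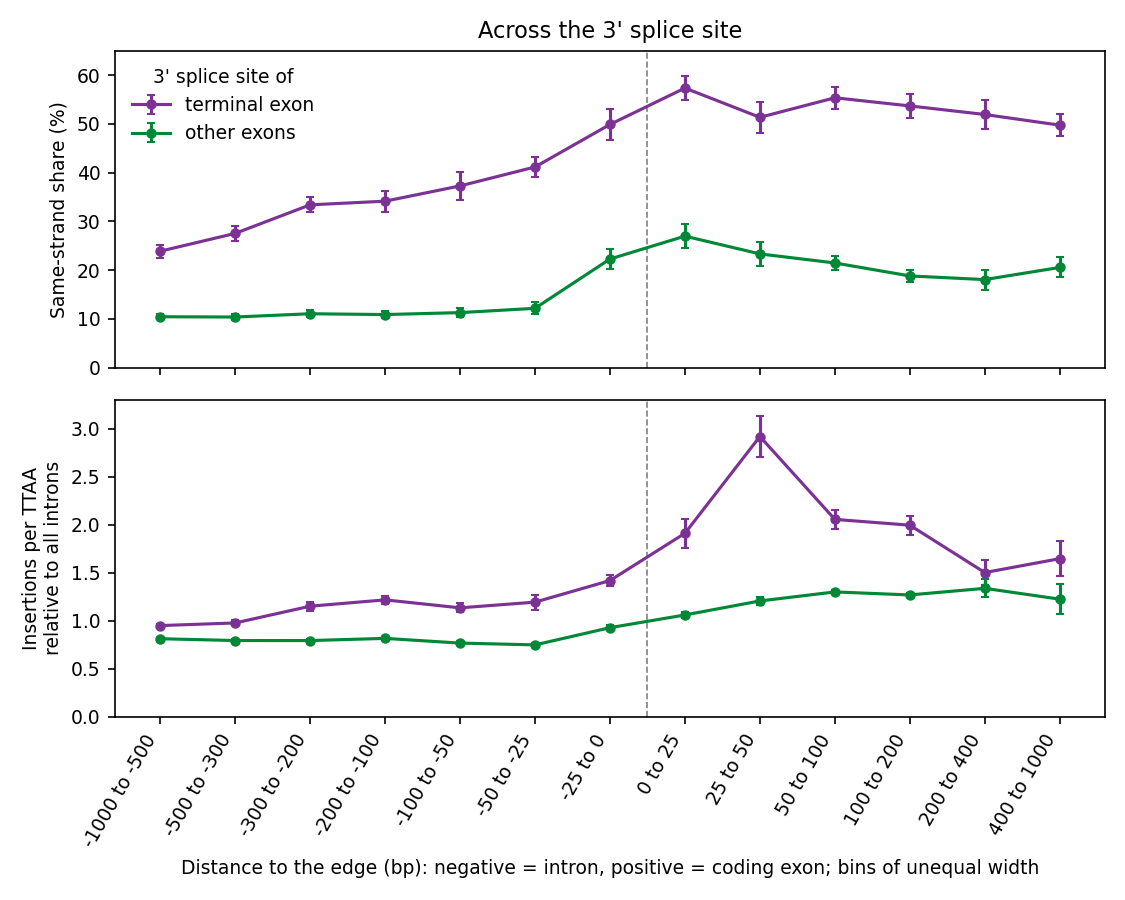
Same-strand share in percent (top) and insertions per TTAA relative to all introns (bottom) by distance from the 3′ splice site, for terminal exons and all other exons of the canonical transcript, as mean and SD of 20 libraries, with the dashed line at the edge between intron and coding exon and bins of unequal width. The terminal exon curve reaches 57.3% in the first bin of the exon, and the other curve 27.0%.

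Over all coding exons, the sign of the difference in orientation from introns depended on the matching. For hyPBase the same-strand share was 27.1% ± 0.763, and for hyPBase-centrip 28.7% ± 0.939 (SD, n = 10). Introns weighted to the same genes had 23.6% ± 0.507 and 24.99% ± 0.483, so coding exons were higher by 3.53 and 3.71 percentage points, in 10 of 10 libraries each (exact two-sided sign-flip permutation test, p = 0.00195). Against all intronic sites of these genes without weighting, at 30.9% and 32.2%, coding exons were lower by 3.79 points with hyPBase and 3.47 with hyPBase-centrip. With only introns within 2 kb of a coding exon they were higher by 8.80 points with hyPBase and 9.22 with hyPBase-centrip. In genes that overlap no other gene they were higher by 8.78 and 8.63. With last and single coding exons left out, the gene-matched difference was -0.403 points with hyPBase (exact permutation p = 0.0918) and -0.208 with hyPBase-centrip (exact permutation p = 0.404).

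The reading frame of the TTAA went with the density. Where TTA, a leucine codon, was in frame, the density ratio was 0.996 ± 0.0202 (SD, n = 20) over 22103 sites. Where TT ended a codon and AA began the next, it was 1.22 ± 0.0399 over 33760 sites. The difference was -0.27 on the log2 scale with hyPBase and -0.30 with hyPBase-centrip, in 10 of 10 libraries each (exact sign-flip permutation test, adjusted p = 0.00220). When introns were matched on the flanking bases in place of the gene, the difference was -0.14 for hyPBase and -0.18 for hyPBase-centrip (10 of 10 libraries each, exact permutation test, adjusted p = 0.00195).

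Long coding intervals had the lowest density. The ratio was 1.16 ± 0.0192 for intervals over 100 and up to 200 bp, 1.47 ± 0.0979 for the class just below 1000 bp and 0.879 ± 0.0962 for those over 1000 bp (SD, n = 20). Intervals over 1000 bp were lower than those of 100 to 200 bp by 0.50 on the log2 scale with hyPBase and by 0.32 with hyPBase-centrip, in 10 of 10 libraries each (exact sign-flip permutation test, adjusted p = 0.00220). Genes were also ranked by their intronic density in hyPBase libraries. In the hyPBase-centrip libraries, which did not rank the genes, the fifth of genes with the lowest intronic density had a ratio of 1.41 ± 0.0641 and the fifth with the highest had 0.990 ± 0.0260 (SD, n = 10). Intronic density is also the denominator of the ratio, and no test was run.

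Among the 74 long member intervals with at least 20 TTAA, levels ran from 0 to 12.9 insertions per TTAA, with a median of 0.976. The highest were a 2073 bp exon of ZNF770, a zinc finger gene, with 12.9 insertions at each of 20 TTAA on average, of which 12 had unique neighbourhoods, and the giant 7818 bp exon of ANK3, which encodes the membrane scaffold ankyrin-G, with 379 at 39. KIAA1586 followed with 191 insertions at 24 TTAA and LRRD1 with 182 at 23. At the other end, the long exons of ZNF43, ZNF729 and ZNF99, zinc finger genes clustered on chromosome 19, had no insertion at 21, 33 and 22 TTAA. Of these sites 8, 12 and 7 had a neighbourhood of 36 bases that occurs at no other TTAA. How far reads from the others could be placed was not tested. XIRP2, a muscle protein that binds actin, had 2 insertions at the 59 TTAA of its 9379 bp exon, all 59 of them in unique sequence. The introns of XIRP2 had 0.659 insertions per TTAA and those of ZNF43 0.613, while those of ZNF99 had 0.0986 and those of ZNF729 0.0120.

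By total insertions, the leading intervals were the SAMSN1 exon with 990, a 5415 bp exon of ZFHX4, a zinc finger and homeobox factor, with 835, and a 572 bp exon of TRAF5, an adaptor of tumour necrosis factor receptors, with 782. The HOMER2 exon followed with 772, an exon of OPA1, the GTPase of mitochondrial inner membrane fusion, with 770, and the OR52A5 exon with 769. In OPA1 the insertions lay at 3 TTAA with at most 292 on a site, and 18.3% were same-strand. In the ZFHX4 exon 62.4% were same-strand.

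The 6 genes with most coding TTAA sites showed the range between large proteins. TTN, the sarcomere protein titin, had 448 insertions at 469 coding sites, a ratio of 0.639 to its introns. AHNAK, a giant scaffold protein, had 116 at 100 sites, while its introns had 13.4 per site, a ratio of 0.0868. CCDC168 had a ratio of 0.302. DST, which links the cytoskeleton to junctions, had 1.02, FSIP2, a protein of the sperm tail, had 1.14, and SYNE1, which ties nuclei to the cytoskeleton, had 0.947.

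Genes were then tested one by one with edgeR, coding exons against introns of the same library, where at least 50 coding insertions were expected from the introns. Of 829 genes tested, 588 (70.9%) passed an adjusted p of 0.05. Coding exons were higher in 214 (25.8%) and lower in 374 (45.1%), and the median log2 ratio was -0.27. The filter on expected insertions favours genes with dense introns and so low ratios. The split and the median are therefore no support for a direction. The test asks whether a gene repeats over libraries, and the same few sites are used in each of them. When only introns within 2 kb of a coding exon were used, the split was 223 higher and 187 lower of 633. Without the filter on low counts it was 1885 higher and 1596 lower of 8394, and with barcodes collapsed 122 higher and 118 lower of 448. The setting without that filter still required a coding and an intronic insertion. It left out genes with no coding insertion, which could only be lower, so its split is no support for a direction either.

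In most genes with the highest ratios a single site held the larger part of the coding insertions. TRAF5 had 811 coding insertions at 9 TTAA, 465 of them on a single site, against 6.53 per intronic TTAA, a log2 ratio of 3.78 ± 0.0797 (SE, edgeR quasi-likelihood, adjusted p = 1.34e-150). EXOC6, a subunit of the exocyst, had a log2 ratio of 3.26 with 77.1% of its coding insertions on its top site. SAMSN1 followed at 3.22 with 31.0% on its top site, and SPAG6, a protein of the axoneme, at 2.72 with 59.4%. IQCH was at 2.62 with 86.9% on its top site, and ATP8B1, a phospholipid flippase, at 2.61 with 74.5%. All of their coding TTAA sites had unique neighbourhoods.

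The lowest ratios came from genes with few coding insertions. These genes passed the filter through their dense introns, so their values are given as a description, with no p. NR4A2, an orphan nuclear receptor, had 7 insertions at 5 coding TTAA, while its 107 intronic TTAA took 70.9 insertions each, a fitted log2 ratio of -5.62 ± 0.228 (SE). RAB11FIP1, a Rab11 effector, was at -3.97 with 9 coding insertions and 23.9 per intronic TTAA. ATP5F1A, the alpha subunit of ATP synthase, was at -4.56, TNRC6B, a scaffold of microRNA silencing, at -4.35, and MAT2B, a subunit of methionine adenosyltransferase, at -4.02. GTF2I, a transcription factor with near-identical copies in the genome, was at -5.04, but only 2 of its 16 coding TTAA had a unique neighbourhood, so its value is uncertain. For ATP5F1A this was 4 of 6.

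Groups of genes with known roles were described by their counts beside those of all genes, where the pooled ratio was 1.15, the median gene ratio 0.866 and 61.4% of sites were hit. BCR-ABL1 signalling and erythroid regulators, which drive growth and identity of these cells, had 383 insertions at 98 coding TTAA, of which 70.4% were hit. Their introns had 11.4 per TTAA, and the pooled ratio was 0.497. Of 19 members with at least 5 expected, 2 had a ratio above 1, beside 42.6% of all such genes, and all 4 members tested with edgeR were lower in coding exons at an adjusted p of 0.05, beside 45.1% of all genes tested. Members entered that test through a filter that favours dense introns, so the count is no support for the direction. SOS1, an activator of RAS, had a ratio of 0.727, and the kinase JAK2 had 0.956.

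Zinc finger (ZNF) genes, mostly repressors with long exons of repeated finger motifs, had insertions at 27.6% of 2105 coding TTAA, a pooled ratio of 0.740 and a median gene ratio of 0.309 over 140 genes. Among their 1689 sites with a unique neighbourhood 32.4% were hit, against 63.6% of such sites over all genes, and the pooled ratio was 0.802. Of 19 members tested with edgeR, 3 were higher and 12 lower in coding exons, beside 25.8% and 45.1% of all genes tested, and the same filter on expected insertions applies to this count. ZNF292 had a ratio of 0.364 and ZNF518A one of 0.821. Olfactory receptor genes, which encode odorant receptors of the nose, had a pooled ratio of 3.596 over 123 sites, and 1.60 without the OR52A5 site of 734 insertions. OR6C1 had 41 insertions at 7 sites, and OR5H8 had 2 at 8.

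The lists of replication, splicing, proteasome, tRNA synthetase and RNA polymerase II genes had pooled ratios above that of all genes over the 20 libraries, and those of the last 3 fell below it without their top site. For the proteasome list the ratio was 1.12 ± 0.286 in hyPBase and 1.33 ± 0.418 in hyPBase-centrip libraries (SD, n = 10), so the spread between libraries was wide. DNA replication genes had a pooled ratio of 1.56, and 1.43 without their top site, with a median gene ratio of 1.07. RFC1, the large subunit of the clamp loader, had 170 insertions at 13 TTAA, a ratio of 3.22, and ORC4, of the origin recognition complex, had 1.48. Core spliceosome genes had 1.38, and 1.26 without their top site and a median gene ratio of 0.869. Among them were SF3B1 at 2.34 and AQR at 1.71. In this list 11.96% of coding insertions were same-strand, against 27.9% over all genes, and the introns of these genes were similarly low at 10.5%. Proteasome genes had 1.22, 1.13 without their top site and a median gene ratio of 1.40, with 9 of 14 genes above 1. The members with most coding sites, PSME4 and PSMD1, were at 0.632 and 0.983. Cytosolic tRNA synthetases also had 1.22, and 1.03 without their top site, with LARS1 at 1.54 and IARS1 at 0.981. In this list 10.9% were same-strand in coding exons and 10.7% in introns. RNA polymerase II and Mediator genes had 1.25, 1.06 without their top site and a median gene ratio of 0.594, with MED13 at 1.31 and POLR2B at 0.608.

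Growth restraint and cell death genes had a pooled ratio of 0.942, and 0.791 without a CDKN1B site of 137 insertions. NF1, a brake on RAS, had 171 insertions at 52 sites, a ratio of 0.759, and the kinase LATS1 had 0.881. Chromatin regulators had 0.879, with 4 members higher and 9 lower of 17 tested with edgeR, close to the 25.8% and 45.1% of all genes tested. The histone methyltransferase KMT2C had a ratio of 1.19 and the remodeller CHD1 one of 0.770. Cytosolic ribosomal protein genes had 11 coding TTAA in all, and a pooled ratio of 0.539. On the 3 sites with a unique neighbourhood, all of them hit, it was 0.908, and without the top site, in RPS3, it was 0.435, so the value rests on too few sites to describe the list. RPL21 had 2 insertions at 3 sites and RPS3 had 12 at 2.

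The helpers differed by small amounts in coding exons. The density ratio was higher with hyPBase-centrip by 0.04 on the log2 scale (two-sided permutation test with 100000 resamples, n = 10 and 10, p = 0.00730). The ranges overlapped, and the difference was 0.03 without hyPBase-centrip replicate 3 (permutation p = 0.0155), which had the highest ratio of all, 1.24. The call was lost with GC matched in place of gene, at 0.00292 (permutation p = 0.734), with gene and GC matched, at 0.0155 (permutation p = 0.0922), and at a minimum of 2 reads per insertion, at 0.0361 (permutation p = 0.149). Within hyPBase, the highest ratios of 1.17 and 1.17 were those of replicates 8 and 9, which had the fewest coding insertions, 7670 and 6581. Within hyPBase-centrip, replicate 3 likewise had the fewest, 7423. Depth and helper also moved together, with a mean of 10481 coding insertions per hyPBase library and 12182 per hyPBase-centrip library, and the part of depth was not tested.

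The same-strand share in coding exons was higher with hyPBase-centrip by 1.59 percentage points (two-sided permutation test, n = 10 and 10, p = 0.000920). By class it was higher by 1.66 points in internal coding exons (permutation test, adjusted p = 0.0117 over 6 classes). In last coding exons the difference was 0.705 points ± 0.453 (SE, permutation test, adjusted p = 0.201). Introns differed by 1.28 points and 3′ UTR sites by 1.63 points in the same direction (permutation test, adjusted p = 6.00e-05 each). First coding exons differed by 0.596 points (permutation test, adjusted p = 0.455) and single ones by -1.19 (permutation test, adjusted p = 0.430). The gene-matched difference between coding exons and introns differed between helpers by 0.183 points (permutation p = 0.493).

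The reads behind each insertion were also set against introns, by class of coding exon. For hyPBase they averaged 3.74 ± 0.653 per coding insertion, and for hyPBase-centrip 2.96 ± 0.565 (SD, n = 10). Over all coding exons the ratio to introns of the same genes was 0.985 ± 0.0261 and 1.02 ± 0.0443 (exact two-sided sign-flip permutation test, p = 0.0977 and p = 0.225). It was 0.903 ± 0.0508 and 0.921 ± 0.0923 in first coding exons, 0.934 ± 0.0290 and 0.968 ± 0.0313 in internal ones, 1.11 ± 0.0547 and 1.13 ± 0.0919 in last ones, and 1.303 ± 0.158 and 1.31 ± 0.133 in single ones. The excess in last coding exons was smaller in subsets, where each value lay within its SD of 1. In genes with TTAA sites in both kinds of exon it was 1.012 ± 0.0406 and 1.034 ± 0.0705. Internal coding exons of those genes were at 0.905 ± 0.0497 and 0.948 ± 0.0243. In intervals of 200 to 1000 bp, last coding exons were at 1.029 ± 0.0633 and 1.06 ± 0.0947. Internal ones of that length were at 0.936 ± 0.0449 and 0.969 ± 0.0528. The difference between these classes was not tested. In last coding exons, same-strand insertions had fewer reads than opposite ones, with a ratio of 0.866 ± 0.0548 in hyPBase and 0.831 ± 0.0470 in hyPBase-centrip libraries, below 1 in 10 of 10 libraries each (exact sign-flip permutation test, p = 0.00195). In internal coding exons the ratio was 0.990 ± 0.0381 with hyPBase (exact permutation p = 0.400) and 0.967 ± 0.0219 with hyPBase-centrip (exact permutation p = 0.00586). At 3′ UTR sites it went the other way, at 1.026 ± 0.0148 with hyPBase (above 1 in 10 of 10 libraries, exact permutation p = 0.00195) and 1.033 ± 0.0190 with hyPBase-centrip (9 of 10, exact permutation p = 0.00391). Introns were below 1 in 10 of 10 libraries each, at 0.974 with hyPBase and 0.975 with hyPBase-centrip (exact permutation p = 0.00195 each). First coding exons were at 0.977 (exact permutation p = 0.545) and 0.925 (exact permutation p = 0.0293). Single ones were at 1.06 (exact permutation p = 0.291) and 0.992 (exact permutation p = 0.750). Under the other strand convention each same-strand to opposite ratio would be inverted. The difference in this ratio between classes was not tested.

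Single genes seldom differed between helpers in their coding exons. Of 125 coding rows with enough insertions, 2 (1.60%) passed an adjusted p of 0.05 with edgeR and 9 had an unadjusted p under 0.05. Among intronic rows 2.66% passed, and 2.64% of all rows. CRYBG1 was higher with hyPBase-centrip, at 4.77 ± 0.834 CPM (insertions scaled to library size) in hyPBase libraries against 7.34 ± 2.10 in hyPBase-centrip libraries (SD, n = 10), a log2 difference of 0.60 ± 0.165 (SE, edgeR adjusted p = 0.0223). CREBZF, a leucine zipper factor, was at 4.18 ± 1.25 and 6.63 ± 1.75, a log2 difference of 0.62 ± 0.174 (SE, edgeR adjusted p = 0.0274). In both genes a single site held most coding insertions, 71.4% and 58.0%. With DESeq2, or without hyPBase-centrip replicate 3, neither passed. Without the filter on low counts 2 rows of 8395 passed, both lower with hyPBase-centrip, so neither gene passed as higher. CRYBG1 had 111 coding insertions with hyPBase and 193 with hyPBase-centrip, and CREBZF 100 and 176. A filter of at least 10 insertions in at least 10 libraries can be met through a single helper. These p-values are therefore no support for a direction.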

How the data were processed

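The authors deposited, for each library, a table that lists each insertion with its hg38 position, its read count, orientation and barcode, and these counts are raw. The submitters' processing notes name Trimmomatic, BWA and SAMtools. Insertions of 20 libraries were placed on TTAA sites and on GENCODE version 44 with Python 3.11.15, numpy 2.4.6, pandas 2.3.3 and scipy 1.17.1. Intronic sites lie in no annotated exon, in exactly 1 protein-coding gene and over 2 kb from 5′ ends. Values were computed per library and compared by exact sign-flip tests within a helper and by permutation tests with 100000 resamples between helpers. Genes were tested with edgeR 4.0.16 in R 4.3.3 (quasi-likelihood, Benjamini-Hochberg adjustment). For exons against introns the library was a block, the offset was TTAA sites and library insertions, and genes had at least 5 coding and 20 intronic sites and 50 expected insertions. For helpers, rows had at least 10 insertions in at least 10 libraries (TMM). DESeq2 1.42.0 was an alternative. Measures and tests were tested on simulated data. For genes with exons against introns, the simulation gave every site of a region the same rate, unlike the uneven sites of these data. It therefore cannot show how the gene calls behave with such sites. Genes named in the text are the 5 top sites, the 6 intervals with most insertions, the 4 highest and 4 lowest per site with at least 20 TTAA, the 6 highest and 6 lowest called the same way with both helpers, up to 3 per direction of the helper test, the 2 genes with most coding sites per list and the 6 overall. CDKN1B falls outside this rule and was chosen after its values were seen. The members, lists and tests were chosen with earlier results of these data known. Exon order, the splice site profile and matching on flanking bases were added after seeing the data. Matching by gene and GC together, unique 36 bases, leaving out last and single coding exons, and internal coding exons only were also not planned. The same holds for the contrast of last with internal coding exons.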

Additional observations from a re-analysis of the deposited data

Results flagged for a closer look

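The difference between helpers in the density ratio of coding exons to introns was 0.04 on the log2 scale (0.0388 before rounding, two-sided permutation test, n = 10 and 10, p = 0.00730), with ratios above 1 in all 20 libraries. It stood out because the same contrast, exon against intron, differed between the 2 helpers by a test of the difference itself. The difference between helpers in log2 of reads per insertion in coding exons over introns was 0.05 (0.0487, permutation p = 0.0399), and it also stood out by its test. A search of 14 groups of 10 libraries for single outlying values found none.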

How the results depend on the processing

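In 264 alternatives over 18 results, 208 left the direction and the side of the threshold, or for a count of genes its size, about as they were. Among these, introns within 2 kb turned the split of genes from 214 higher and 374 lower to 223 and 187. The density ratio stayed between 1.05 and 1.32 with hyPBase and between 1.07 and 1.35 with hyPBase-centrip. The last minus internal same-strand share stayed between 28.7 and 31.2 points and between 27.5 and 30.5. The cause was not tested for the changes below.

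The same-strand share of coding exons minus introns reversed to -4.10 (hyPBase) and -3.62 (hyPBase-centrip) with GC matched in place of gene, to -3.79 and -3.47 with no matching, and to -3.71 and -3.37 with flanking bases matched. It was -0.403 and -0.208 without last and single coding exons, and -0.839 and -0.589 in internal coding exons. It rose to 8.80 and 9.22 with introns within 2 kb, and to 8.78 and 8.63 in genes that overlap no other. Its difference between helpers reversed to -0.0847 at 2 reads or more, -0.530 at 3 or more and -0.148 in genes that overlap no other.

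The ratio of reads per insertion had no stable sign. With hyPBase it was 1.00 (1.003 before rounding) with barcodes collapsed, 1.02 with distinct positions per library, 1.015 with introns within 2 kb and 1.006 with no matching. It passed the threshold below 1 at 0.977 (2 reads), 0.975 (3 reads), 0.952 (2 kb from every transcript 5′ end), 0.967 (canonical CDS), 0.981 (10 bp from exon edges), 0.937 (GC), 0.952 (gene and GC), 0.957 (without last exons) and 0.934 (internal exons). With hyPBase-centrip it was above 1 and passed at 1.04 (barcodes collapsed), 1.05 (distinct positions), 1.05 (introns within 2 kb; 1.046) and 1.02 (no matching; 1.025). The sign of its mean log2 turned at 0.985 (every transcript 5′ end), 0.964 (GC), 0.992 (gene and GC), 0.992 (without last exons) and 0.968 (internal exons). It also turned at 1.00 with canonical CDS (1.0002 before rounding), a mean ratio of about 1 with a mean log2 below 0. Of these, 0.964 (GC, exact permutation p = 0.00781) and 0.968 (internal exons, exact permutation p = 0.0156) passed the threshold below 1.

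The helper difference in that log2 ratio no longer passed at 0.0478 (barcodes collapsed), 0.0439 (5 kb from 5′ ends), 0.0432 (introns within 2 kb), 0.0482 (canonical CDS), 0.0257 (no matching), 0.0465 (unique 36 bases), 0.0237 (flanking bases) and 0.0409 (without hyPBase-centrip replicate 3). The helper difference in log2 density ratio no longer passed at 0.0361 (2 reads), 0.0267 (3 reads), 0.00292 (GC) and 0.0155 (gene and GC). That in log2 coding insertions per TTAA relative to the library was 0.0238 (permutation p = 0.00766) and no longer passed at 0.0159 (2 reads) and 0.00616 (3 reads).

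Genes whose coding exons differed from introns numbered 588, 3481 without the filter on low counts and 240 with barcodes collapsed. The setting without the filter still left out genes with no coding insertion. Genes that differed between helpers numbered 2, and 0 with DESeq2, with barcodes collapsed and without hyPBase-centrip replicate 3. Without the filter on low counts 2 passed of 8395, both lower with hyPBase-centrip.

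Libraries with the same replicate number did not deviate together over 396 genes (correlations from -0.0884 to 0.0709), so the numbers were not taken as pairs. With the replicate block the helper difference in the reads ratio was 0.0487 and no longer passed (exact permutation p = 0.0527). The block left 2 genes called and changed no other call. The planned repeat alternative was not run, because the reference used marks no repeats. Insertions per site are limited by the barcodes and orientations available, which caps the most used sites.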
